A study of Mus musculus with 10 samples.

Results

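The genes for integrins, laminins and the other core basement membrane proteins were followed in sorted mouse skeletal stem cells by RNA sequencing. The set held every gene symbol of the deposited table that names an integrin alpha or beta chain or a laminin alpha, beta or gamma chain, together with the 2 nidogens, perlecan, agrin and dystroglycan. The integrin chain that the CD51 antibody binds was left out because the cells were sorted by it. This gave 39 of 15078 genes, namely 15 integrin alpha chains, 8 integrin beta chains, 11 laminin chains, 2 nidogens, 2 proteoglycans and dystroglycan.

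The study asked how stem cells of the periosteum, the sheath around bone, take part in rebuilding the bone marrow after injury. All cells were negative for the blood cell markers CD45 and Ter119 and for the endothelial marker CD31, and positive for CD51 and CD200. Graft BM-MSCs (4 libraries) came from the marrow of femurs of Postn-CreER;tdTomato donors that had been placed under the skin of wild-type hosts, and were sorted as Tomato+ cells 5 months after transplantation. Tamoxifen, which switches on the Cre, was given to the hosts once the femurs were in place. BM-MSCs (3 libraries) and P-SSCs (3 libraries) came from the marrow and the periosteum of wild-type mice labelled as hosts at steady state with no treatment. In the grafts Cre was driven by the promoter of Postn, the periostin gene, which is used by periosteal cells but also by osteoblasts and fibroblasts, so a Tomato+ cell was traced to a cell with that promoter active and not to 1 cell type. Periosteum was scraped off, marrow was flushed out and both were digested with enzymes, and RNA of 2 mice was joined in BM-MSC 2+4 and in P-SSC 2+5. Per the study's methods the replicates came from different mice, so p-values measure the spread between mice or pairs of mice.

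Integrins are receptors made of 1 alpha and 1 beta chain that hold cells to the matrix and signal through adaptor proteins at the inner face of the membrane. Laminins are trimers of an alpha, a beta and a gamma chain that assemble into a sheet on the cell surface, the basement membrane, where nidogens and the proteoglycans perlecan and agrin link them to collagen IV. Dystroglycan is a second type of laminin receptor, which binds through sugar chains. In the marrow, laminin and integrin contacts are known at the walls of sinusoids and in the anchoring of blood stem cells.

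Libraries held 15415421 to 25223295 reads, and 9308 to 11674 genes were detected in graft libraries against 12217 to 13341 in the steady-state libraries. Values are read counts divided by the size factor of the library, called values here, and a log2 difference is on the scale of log2(value + 1). The labels were checked against marker genes. The summed value of 10 marrow stromal genes was 738610 to 877550 in graft BM-MSCs and 907930 to 1220300 in BM-MSCs against 20906 to 38291 in P-SSCs, and the sum of 9 periosteal genes was 382820 to 647840 in P-SSCs against at most 10858 in the other libraries. Cxcl12 made up most of the first sum in the marrow libraries (560620 to 995480). Pdgfra of that list was higher in P-SSCs (6193 to 14223 against 2161 to 5733). Ctsk of the periosteal list did not separate the groups, with 5001 to 8116 in P-SSCs and 3375 to 9680 elsewhere. In 5 libraries, the 4 grafts and P-SSC 4, genes with a GC content above 65% were high, by 1.52 to 2.80 on the log2 scale relative to genes of 50 to 60%, whereas they were low by 1.51 to 1.81 in the other 5. Graft BM-MSCs and BM-MSCs therefore differed in this property as a whole, and their difference cannot be told apart from it. A value of 0 in at least 1 library of the group occurred for 24 of the 39 genes in grafts, 12 in BM-MSCs and 8 in P-SSCs, and 20 were at 0 in graft BM-MSC 2. In bulk RNA, fewer cells of a type and less RNA per cell cannot be told apart.

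**Figure D1:**
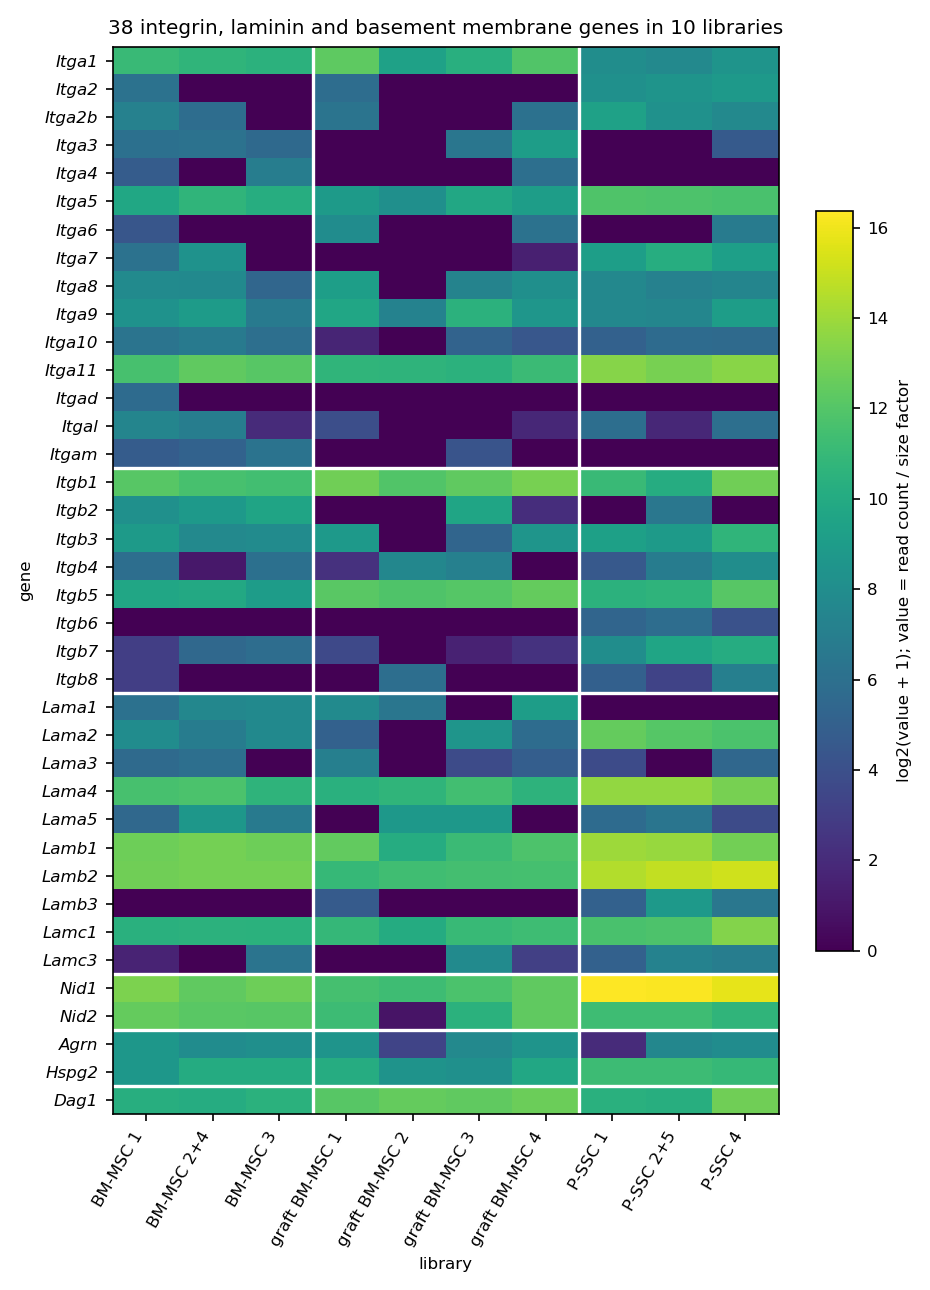
Level of 38 of the genes, as log2(value + 1), in each of the 10 libraries, with white lines between gene families and between groups. Nid1 and Lamb2 were the brightest rows in P-SSCs, while Itgb6 and Lamb3 were dark in all 3 BM-MSC libraries.

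Stretches of DNA just upstream of 4 of the genes are shown, of which 2 (Nid1, Itga11) were lower in graft BM-MSCs than in P-SSCs and 2 (Itgb5, Dag1) were higher in graft BM-MSCs than in BM-MSCs. Each runs from 250 to 52 bases before the RefSeq start (build GRCm38.p6), 5′ to 3′ on the strand of the gene, and ends before the first base of the gene in GENCODE M21. They lie at chr13:13437352-13437550 (+), chr9:62677605-62677803 (+), chr16:33829415-33829613 (+) and chr9:108264010-108264208 (-). Capitals mark matches to GGGCGG (a GC box) or CCAAT on either strand.
Nid1: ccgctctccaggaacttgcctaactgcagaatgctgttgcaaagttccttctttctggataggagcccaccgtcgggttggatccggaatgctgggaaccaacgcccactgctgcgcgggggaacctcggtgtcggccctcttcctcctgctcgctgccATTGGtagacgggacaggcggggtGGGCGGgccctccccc
Itga11: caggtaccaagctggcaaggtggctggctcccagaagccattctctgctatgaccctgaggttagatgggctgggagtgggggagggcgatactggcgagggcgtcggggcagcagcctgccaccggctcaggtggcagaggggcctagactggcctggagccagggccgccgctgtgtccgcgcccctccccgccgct
Itgb5: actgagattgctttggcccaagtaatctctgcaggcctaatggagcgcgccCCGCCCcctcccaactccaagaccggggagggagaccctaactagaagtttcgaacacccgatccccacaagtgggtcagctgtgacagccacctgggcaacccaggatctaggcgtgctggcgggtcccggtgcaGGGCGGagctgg
Dag1: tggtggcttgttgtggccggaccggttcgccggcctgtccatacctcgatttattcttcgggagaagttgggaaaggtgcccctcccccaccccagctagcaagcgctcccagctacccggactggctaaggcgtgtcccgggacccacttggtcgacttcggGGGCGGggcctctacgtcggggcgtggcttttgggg
The GC box matched 2 times for Itgb5, 1 time for Nid1, 1 time for Dag1 and 0 times for Itga11, and 24.4% of all 32851 RefSeq promoters hold it in the same 199 bases. CCAAT matched 1 time, for Nid1, against 28.2% of all promoters. TATAAA and TGANTCA (the AP-1 motif) matched in none of the 4, against 9.11% and 5.55% of all promoters. The GC content of the 4 stretches was 62.8% to 69.3%. On the same build, Dag1 (ENSMUSG00000039952) spans chr9:108204634-108263958 on the minus strand.

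Of the 39 genes, 38 passed the filter of a mean value of at least 10 and were tested with limma, and 19 were called, at an adjusted p under 0.05 over all 13644 genes tested, in at least 1 of the 3 comparisons. Between graft BM-MSCs and P-SSCs, 16 of 38 were called, 15 of them lower and 1 higher in the grafts, against 18.1% of all genes. Between graft BM-MSCs and BM-MSCs, 4 were called, 2 lower and 2 higher, against 7.67% of all genes. Between P-SSCs and BM-MSCs, 12 were called, 10 higher and 2 lower in P-SSCs, against 9.15% of all genes. Every library of one group lay above every library of the other for 18 (47.4%), 7 (18.4%) and 26 (68.4%) of the 38 in the 3 comparisons, against 26.6%, 25.0% and 30.9% of all genes. The median log2 difference of the 38 was -2.30, -1.12 and 1.38 in the 3 comparisons, beside -0.47, -0.53 and 0.00 over all genes tested. The 3 comparisons share their groups, and 9 genes were lower in graft BM-MSCs than in P-SSCs and also higher in P-SSCs than in BM-MSCs. The split by direction depended on the scaling. After quantile normalization 12 were lower and 4 higher in graft BM-MSCs than in P-SSCs, and after correction of each library for GC content 12 were lower and 5 higher. Between graft BM-MSCs and BM-MSCs the GC correction gave 4 higher and 0 lower, of which 2 were among the 4 called without it.

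**Figure D2:**
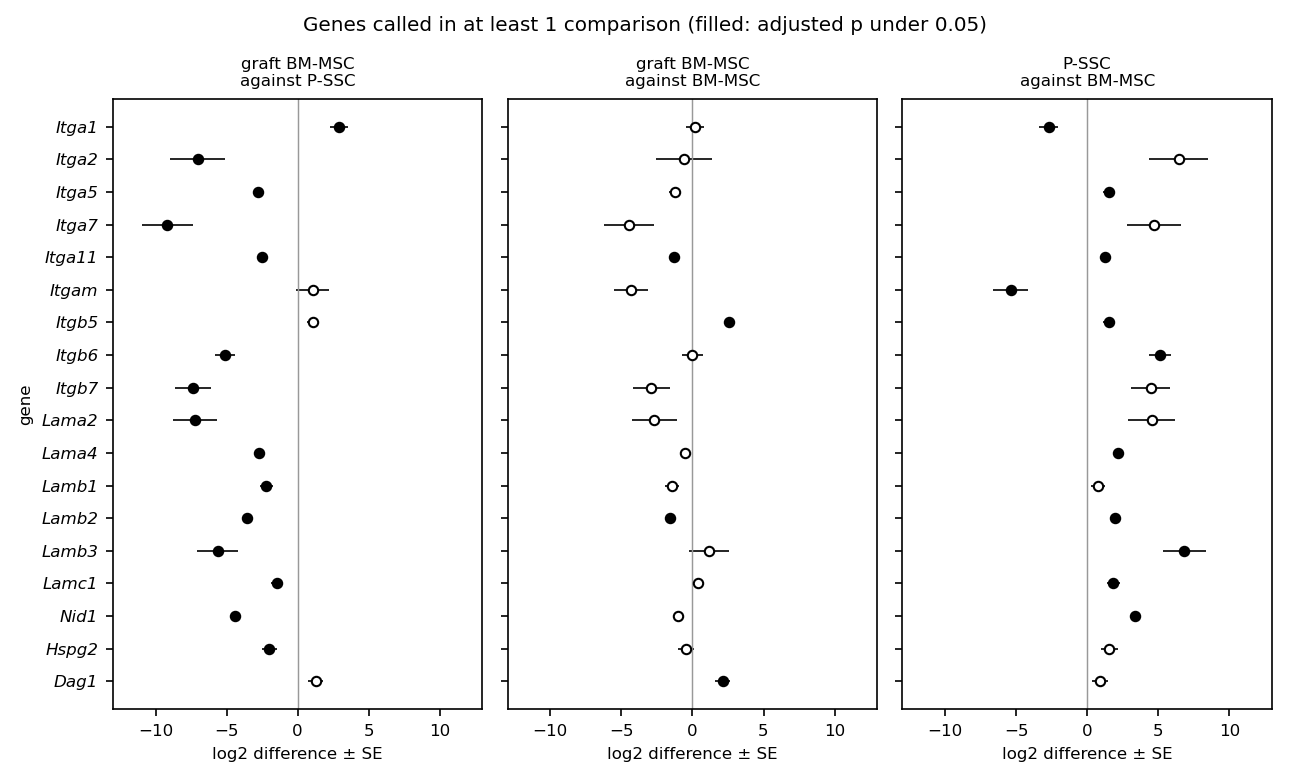
Log2 difference with its SE for 18 genes called in at least 1 comparison, 1 panel per comparison, with filled points where the adjusted p was under 0.05. Most matrix genes lie to the left in the first panel and to the right in the third, and 4 points are filled in the middle panel.

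The integrin alpha chains of the set, which leaves out the CD51 chain, were led by collagen and fibronectin receptors. Itga11, whose chain pairs with beta 1 to bind fibrillar collagen, had values of 1703, 1599, 1476 and 2306 in the 4 graft libraries, 3190.5, 5265 and 4406 in BM-MSCs and 11035, 8309 and 11173 in P-SSCs. No library of 1 group overlapped with another, and the order was graft, BM-MSC, P-SSC. The log2 difference was -2.53 (SE 0.25, adjusted p = 8.26e-05) from P-SSCs to grafts, -1.27 (SE 0.25, adjusted p = 0.0132) from BM-MSCs to grafts and 1.26 (SE 0.26, adjusted p = 0.0107) from BM-MSCs to P-SSCs. Between grafts and BM-MSCs the call was lost without BM-MSC 2+4 or BM-MSC 3, with adjusted p-values up to 0.0678 and log2 differences of -1.46 to -1.10 when 1 library at a time was left out, and the difference was -0.37 after GC correction. Between P-SSCs and BM-MSCs it was lost without P-SSC 1 (adjusted p = 0.051).

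Itga5, the alpha chain of the main fibronectin receptor, followed a like order. Its values were 485, 278, 902 and 547 in graft BM-MSCs, 845, 1709.5 and 1151 in BM-MSCs and 3724, 3535 and 3227 in P-SSCs. All P-SSC libraries lay above all others, while graft BM-MSC 3 reached into the BM-MSC range. The log2 difference from P-SSCs to grafts was -2.78 (SE 0.40, adjusted p = 0.000833), and from BM-MSCs to P-SSCs it was 1.56 (SE 0.43, adjusted p = 0.0480). The latter call was lost without any 1 of 8 libraries, all but graft BM-MSC 2 and 3, with adjusted p-values of 0.0153 to 0.180.

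Itga1 went the other way. Its chain is a collagen receptor subunit with a preference for collagen IV, and its gene lies 20995 bases from Itga2 on chromosome 13. Its values were 4995, 669, 1269 and 3812 in graft BM-MSCs, 2197, 1694 and 1437 in BM-MSCs and 261, 206 and 351 in P-SSCs. Every marrow library, graft or not, lay above every P-SSC library, and the graft values spanned those of BM-MSCs. The log2 difference was 2.91 (SE 0.63, adjusted p = 0.00875) between grafts and P-SSCs, and -2.71 (SE 0.67, adjusted p = 0.0283) between P-SSCs and BM-MSCs. This second call was lost without any 1 of the 6 P-SSC and BM-MSC libraries, with adjusted p-values of up to 0.111 and log2 differences of -2.91 to -2.53. A predicted gene, Gm49395, shares 685 exonic bases with Itga1 on the same strand, so its values are uncertain to that extent.

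Its neighbour Itga2, another collagen receptor subunit, was listed at 0 in 3 graft libraries and at 56.5 in graft BM-MSC 1. It had 71.0, 0 and 0 in BM-MSCs and 291, 353 and 449.8 in P-SSCs. All 3 P-SSC libraries lay above the others. The log2 difference between grafts and P-SSCs was -7.03 (SE 1.95, adjusted p = 0.0305), and it lost its call without any 1 of graft BM-MSC 2, 3 or 4 or of the 3 P-SSC libraries (adjusted p up to 0.0890). On the recovered reads edgeR and DESeq2 gave -4.59 and -4.72 and did not call it (adjusted p = 0.286 and 0.211).

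Itga7, the laminin receptor subunit known from skeletal muscle, was at 0, 0, 0 and 1.73 in graft BM-MSCs, at 70.0, 321 and 0 in BM-MSCs and at 572, 1166 and 605 in P-SSCs. No graft library held more than 3 reads, and against that floor the grafts were at least 318-fold lower than P-SSCs (adjusted p = 0.00495). The summed level of skeletal muscle markers was also higher in P-SSCs than elsewhere, and their part in the result was not tested. The sum of the 8 measured was 519 to 1962 in P-SSCs, 1.01 to 457 in grafts and 151 to 454 in BM-MSCs. Acta1, the skeletal muscle actin, was listed at 547, 893 and 206 in P-SSCs and at 0 in the other 7 libraries. Actn3 and Mylpf of the same list were not higher in P-SSCs. Actn3 was at 51.4 to 228 in P-SSCs, 94.0 to 326 in BM-MSCs and 0 to 263 in grafts. Mylpf was at 38.8 to 82.8 in P-SSCs, 28.2 to 127 in BM-MSCs and 0 to 246 in grafts. Schwann cell markers moved in the same direction, with a sum over 9 genes of 22113 to 29353 in P-SSCs and 6068 to 12541 in the other libraries, and Sox10 was at 0 in all 4 grafts.

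The integrin alpha chains known from blood cells were low. Itgam, the alpha chain of a receptor of neutrophils and macrophages, was at 26.1, 34.8 and 75.9 in BM-MSCs, at 0 in all 3 P-SSC libraries, and at 18.1 in graft BM-MSC 3 and 0 in the other graft libraries. All BM-MSC libraries lay above all others. Against the floor of 3 reads P-SSCs were at least 13.9-fold lower than BM-MSCs (adjusted p = 0.0205), a call that was lost without BM-MSC 2+4, BM-MSC 3 or any 1 P-SSC library (adjusted p up to 0.0698). On the recovered reads edgeR and DESeq2 did not make this call (adjusted p = 0.22 and 0.215). Between grafts and BM-MSCs the log2 difference was -4.33 (adjusted p = 0.0503). Itgb2, the beta chain that pairs with it, was at 296, 449 and 748 in BM-MSCs, at 0, 90.4 and 0 in P-SSCs and at 0, 0, 773 and 3.45 in grafts, and was not called (adjusted p of 0.166 to 0.181 against BM-MSCs). The sum of 10 neutrophil markers was also highest in graft BM-MSC 3, at 116280. It was 5849 to 13807 in the other grafts, 31429 to 95026 in BM-MSCs and 33.9 to 287 in P-SSCs. In P-SSC 2+5, where Itgb2 was at 90.4, it was 287, below every graft. The sum of 10 macrophage markers was 1728 to 14442 in grafts, 5097 to 17469 in BM-MSCs and 742 to 3076 in P-SSCs, with 3076 in P-SSC 2+5. The sum of 10 pan-leukocyte markers was 1358 to 7531 in grafts, 4402 to 7600 in BM-MSCs and 12.6 to 236 in P-SSCs. Ptprc, the CD45 gene, was at 196 in graft BM-MSC 3 and 0 to 2.59 in the other grafts. It was at 16.7 to 78.0 in BM-MSCs and at 0 in P-SSCs. The part of these cells in the values of Itgam and Itgb2 was not tested. Most exonic bases of Itgam (3450 of 5024) are also annotated to a predicted gene, Gm49368.

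Itga2b, the platelet integrin chain, was at 652, 306 and 204 in P-SSCs, 78.0, 0, 0 and 69.0 in grafts and 146, 58.0 and 0 in BM-MSCs, with adjusted p-values of 0.120 and 0.452 for P-SSCs against grafts and BM-MSCs. P-SSCs lay above all others. The sum of 7 platelet and megakaryocyte markers was 0 to 48.4 in P-SSCs, against 5.18 to 612 in grafts and 319 to 2108 in BM-MSCs. Ppbp, Gp9 and Tubb1 were at 0 in all P-SSC libraries, and the part of these cells was not tested.

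The remaining 8 alpha chains were called in no comparison. Itga8 and Itga9, receptors for nephronectin and tenascin among others, had means of 252 ± 239 and 705 ± 574 (SD, n = 4) in grafts and 162 ± 105 and 313 ± 206 (SD, n = 3) in BM-MSCs. Itga3 and Itga6, the usual epithelial laminin receptor chains, were listed at 0 in 2 graft libraries each and reached 545 and 243 in 1 graft library each, with means of at most 61.2 in BM-MSCs and 36.5 in P-SSCs. Itga4, the chain known from lymphocytes, was at 0 in all P-SSC libraries and in 3 grafts, Itgal had means of 4.18 ± 6.74 (n = 4), 100.2 ± 88.0 and 41.3 ± 33.6 (SD, n = 3) in grafts, BM-MSCs and P-SSCs, and Itga10, a cartilage chain, had means of 14.8, 81.3 and 45.0. Itgad fell below the filter, since it was listed at 52.2 in BM-MSC 1 and at 0 elsewhere. Ranks and shares per kilobase of transcript cover the 15 alpha chains of the set only, without the CD51 chain. Among these Itga11 was the highest in every group. It took 42.4% ± 18.1 (SD, n = 4) of their summed level in grafts, 57.5% ± 7.73 (n = 3) in BM-MSCs and 61.3% ± 4.74 (n = 3) in P-SSCs. In grafts Itga1 came next with 23.2% ± 12.2, and in BM-MSCs and P-SSCs Itga5 came next with 18.3% ± 2.97 and 24.0% ± 2.82.

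**Figure D3:**
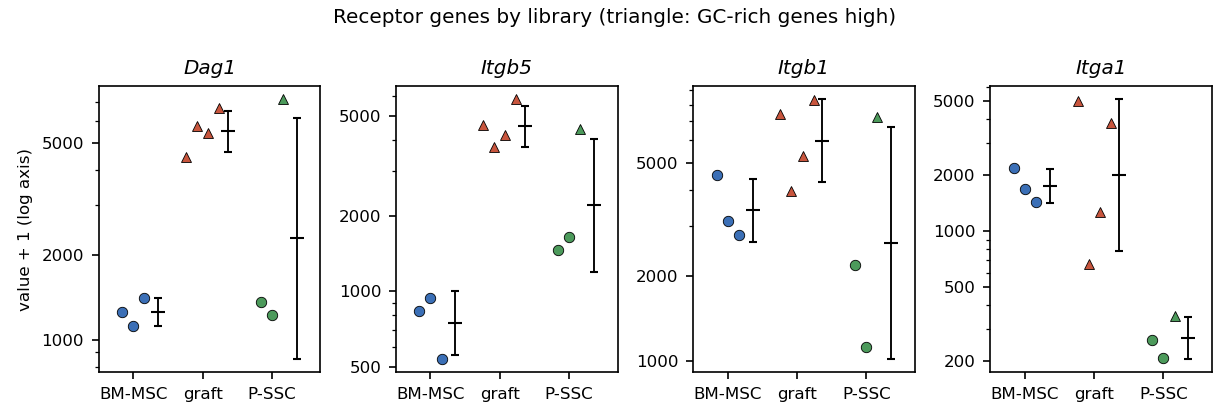
Value + 1 on a log axis for 4 receptor genes in each library, with the mean and SD of log2(value + 1) beside the points and triangles for libraries with GC-rich genes high. For Dag1, Itgb5 and Itgb1 the P-SSC 4 triangle sits with the graft triangles, and for Itga1 it sits with the other P-SSCs.

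Among the beta chains, Itgb5 separated the grafts from BM-MSCs. Itgb5 encodes a partner of the CD51 chain in a vitronectin receptor. Its values were 4581, 3761, 4199 and 5833 in graft BM-MSCs, 832, 936 and 534 in BM-MSCs, and 1457, 1641 and 4423 in P-SSCs. All grafts lay above all BM-MSCs, and P-SSC 4 lay within the graft range while the other P-SSCs lay between both groups. The log2 difference was 2.60 (SE 0.39, adjusted p = 0.00456) between grafts and BM-MSCs, and it kept its call when any 1 library was left out (2.36 to 2.76). Between P-SSCs and BM-MSCs it was 1.55 (SE 0.42, adjusted p = 0.0435), and 1.05 for P-SSC 1 and 2+5 alone. This call was lost without any 1 of 8 libraries, all but graft BM-MSC 2 and P-SSC 1 (adjusted p up to 0.171). In a fit with a term for the libraries in which GC-rich genes were high, the graft difference from BM-MSCs was 1.08 (adjusted p = 0.567).

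Itgb1, the partner of most alpha chains of the set, had values of 7391, 3961, 5258 and 8316 in graft BM-MSCs, 4525, 3108 and 2769.5 in BM-MSCs and 2176, 1121 and 7217 in P-SSCs. It passed the test in no comparison, and again P-SSC 4 lay with the grafts. Without P-SSC 4, grafts were higher than P-SSCs by 1.94 on the log2 scale for Itgb1 (adjusted p = 0.00709) and by 1.55 for Itgb5 (adjusted p = 0.00473). GC-rich genes were then high in all grafts and low in all P-SSCs, and the differences cannot be told apart from this. From P-SSC 4 alone the grafts differed by -0.27 for Itgb1 and 0.035 for Itgb5.

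Itgb7, a chain known from gut-homing lymphocytes, was at 11.3, 0, 2.01 and 4.32 in grafts, 7.31, 45.3 and 56.2 in BM-MSCs and 265, 796 and 1107 in P-SSCs. All P-SSC libraries stood above the other 7. The log2 difference between grafts and P-SSCs was -7.36 (SE 1.30, adjusted p = 0.00283), and that between P-SSCs and BM-MSCs was 4.46 (SE 1.39, adjusted p = 0.0784). The sum of 9 lymphocyte markers was 213 to 859 in P-SSCs, 374 to 1254 in BM-MSCs and 0 to 453 in grafts, with Cd3d and Cd3g at 0 in all P-SSCs, and its part in the result was not tested.

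Itgb6, an epithelial chain of receptors that release active TGF-beta, was listed at 39.5, 57.3 and 16.5 in P-SSCs and at 0 in the 7 marrow libraries. Against the floor of 3 reads it was at least 15.4-fold lower in grafts and at least 12.2-fold lower in BM-MSCs than in P-SSCs, with adjusted p-values of 0.000736 and 0.00150. edgeR on the recovered reads called neither (adjusted p = 0.0640 and 0.162). Itgb3, Itgb4 and Itgb8 were called in no comparison. Itgb3 lay higher in the 3 P-SSC libraries (492 to 1685) than in the other 7 (0 to 475), with adjusted p-values of 0.155 and 0.892. Per kilobase, Itgb1 and Itgb5 were the 2 highest beta chains in each group. Itgb5 took 45.0% ± 4.62 (SD, n = 4) of the beta chain level in grafts, 16.9% ± 4.41 (n = 3) in BM-MSCs and 36.6% ± 3.43 (n = 3) in P-SSCs, and its highest share in BM-MSCs (21.9%) was below its lowest share elsewhere (33.7%).

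Of the 11 laminin chains, 7 were lower in graft BM-MSCs than in P-SSCs and 0 were higher, where 1634 of all 13644 genes tested were lower and 830 higher. Their median log2 difference was -2.71, against -0.47 over all genes. In P-SSCs 5 were higher than in BM-MSCs and 0 were lower, where 623 of all genes were higher and 625 lower, and the medians were 1.95 and 0.00. Lamb2 alone was called between grafts and BM-MSCs. Lama4, the alpha chain of the vascular and stromal laminins, was at 1333, 1704, 2695 and 1512 in grafts, 3058, 3431 and 1598 in BM-MSCs and 13374, 13524 and 8287 in P-SSCs. P-SSCs stood above all marrow libraries, and grafts and BM-MSCs overlapped. The log2 differences were -2.71 (SE 0.34, adjusted p = 0.000364) between grafts and P-SSCs and 2.16 (SE 0.37, adjusted p = 0.00317) between P-SSCs and BM-MSCs. Both calls held when any 1 library was left out.

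Lama2, the alpha chain of the laminin of muscle and nerve sheaths, was at 33.3, 0, 377 and 55.2 in grafts, 249, 117 and 218 in BM-MSCs and 5726, 4234 and 3414 in P-SSCs. The lowest P-SSC value lay far above the highest value elsewhere. The log2 difference between grafts and P-SSCs was -7.22 (SE 1.55, adjusted p = 0.00871), and it kept its call when any 1 library was left out (-8.45 to -5.60). Between P-SSCs and BM-MSCs it was 4.55 (SE 1.66) and missed the threshold in the fit of all groups (adjusted p = 0.139), while the fit of these 2 groups alone gave an adjusted p of 0.00122. The muscle and Schwann cell markers given beside Itga7 were also higher in P-SSCs. An antisense gene, Gm48084, shares 631 exonic bases with Lama2.

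Lama1, the alpha chain of early embryonic laminin, had the reverse pattern. It was at 224, 86.9, 0 and 553 in grafts, 68.9, 187 and 215 in BM-MSCs and 0 in all P-SSC libraries, and missed the threshold against BM-MSCs (adjusted p = 0.0609), although the fit of these 2 groups alone (adjusted p = 0.00197), DESeq2 (0.000164) and quantile normalization (0.0240) called it. Against the floor of 3 reads it was at least 47.8-fold lower in P-SSCs than in BM-MSCs. Lama3 and Lama5, the chains of epithelial and of adult vascular laminins, were called in no comparison, with group means of 18.7 to 44.0 and 49.5 to 215. Lama5 was at 428 and 432 in graft BM-MSC 2 and 3 and at 0 in the other 2 grafts.

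Lamb2 differed in all 3 comparisons. Its chain takes the place of beta 1 in the laminins of nerve-muscle contacts, kidney and vessel walls, and its gene lies 216 kb from Dag1 on chromosome 9. It was at 1962, 2594, 2894 and 2954 in grafts, 7184, 8064 and 7938 in BM-MSCs and 23165, 29895 and 38051 in P-SSCs. The 3 groups did not overlap, in the same order as for Itga11. The log2 difference was -3.53 (SE 0.22, adjusted p = 6.43e-06) between grafts and P-SSCs, -1.59 (SE 0.22, adjusted p = 0.00277) between grafts and BM-MSCs and 1.95 (SE 0.23, adjusted p = 0.000391) between P-SSCs and BM-MSCs, and each kept its call when any 1 library was left out. After GC correction the difference between grafts and BM-MSCs was -1.003 (adjusted p = 0.0840).

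Lamb1 was at 5662, 1122, 2248 and 3612 in grafts, 6811, 7900 and 7041 in BM-MSCs and 16110, 15042 and 7705 in P-SSCs. Grafts lay below all other libraries, and P-SSC 4 lay among the BM-MSCs. The log2 difference between grafts and P-SSCs was -2.20 (SE 0.48, adjusted p = 0.00941), and it lost its call without P-SSC 1 (adjusted p = 0.0522) and after GC correction (-1.23, adjusted p = 0.0694). Between grafts and BM-MSCs it was -1.43 (SE 0.48, adjusted p = 0.0999).

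Lamb3 encodes a beta chain that occurs with Lama3 in the laminin of epithelial attachment. It was at 24.9 in graft BM-MSC 1 and 0 in the other 6 marrow libraries, and at 32.2, 469 and 90.1 in P-SSCs. Each P-SSC library lay above every marrow library. Between grafts and P-SSCs the log2 difference was -5.64 (SE 1.41, adjusted p = 0.0195), and P-SSCs were at least 63.9-fold higher than BM-MSCs against the floor of 3 reads (adjusted p = 0.0158). The first call was lost without P-SSC 2+5 (adjusted p = 0.0655) and the second without any 1 BM-MSC library (adjusted p up to 0.0610), and edgeR called neither (adjusted p = 0.244 and 0.156). Lama3 had a mean of 18.7 ± 22.5 (SD, n = 3) in P-SSCs.

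Lamc1 encodes the gamma chain of most laminins. Its values were 1889, 1054, 2109 and 2544 in grafts, 1332, 1482 and 1412 in BM-MSCs and 3311, 3609 and 10440 in P-SSCs. P-SSCs lay above all marrow libraries, P-SSC 4 by far the most. The log2 difference was -1.47 (SE 0.42, adjusted p = 0.0366) between grafts and P-SSCs and 1.83 (SE 0.45, adjusted p = 0.0290) between P-SSCs and BM-MSCs. Without P-SSC 4 they were -0.93 and 1.30, and neither was called. The first call was also lost without any 1 of graft BM-MSC 1, 2 or 3 or of the BM-MSC libraries (adjusted p up to 0.0782), the second without any 1 BM-MSC library (adjusted p up to 0.0983), and after GC correction the first difference was -0.47. Lamc3 was called in no comparison, with 231 in graft BM-MSC 3, at most 7.77 in the other grafts and 32.2 to 154 in P-SSCs.

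**Figure D4:**
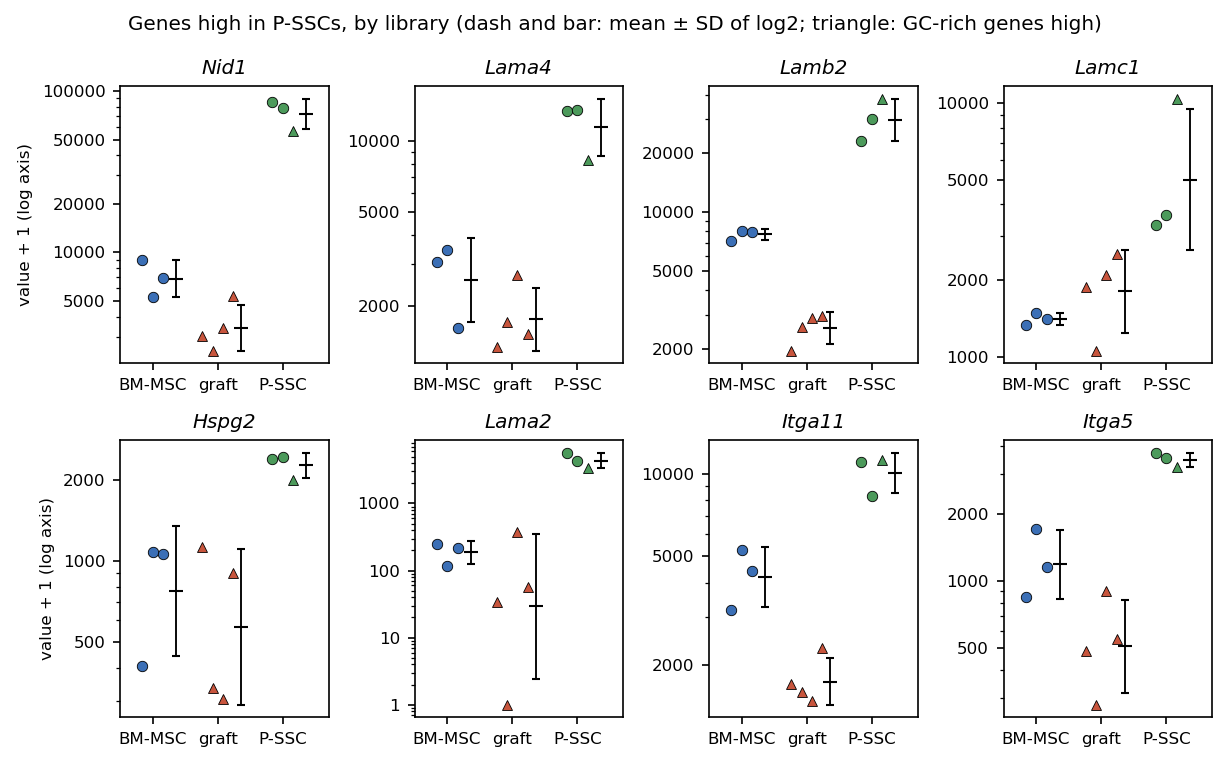
Value + 1 on a log axis for 8 matrix and receptor genes in each library, with the mean and SD of log2(value + 1) beside the points and triangles for libraries with GC-rich genes high. The 3 P-SSC libraries lie above all 7 marrow libraries in each panel.

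Per kilobase of transcript, the make-up of the laminin families also differed. Lama4 was the highest alpha chain in every group, with 83.6% ± 3.13 (SD, n = 4) of the alpha chain level in grafts, 88.0% ± 4.74 (n = 3) in BM-MSCs and 80.4% ± 2.57 (n = 3) in P-SSCs, and Lama2 came next in P-SSCs with 19.4% ± 2.58. By the longest transcript, Lamb1 and Lamb2 took 50.1% ± 18.6 and 49.8% ± 18.7 of the beta chain level in grafts, 47.7% ± 1.26 and 52.3% ± 1.26 in BM-MSCs, and Lamb2 took 69.7% ± 12.2 in P-SSCs. The graft libraries ranged from 29.6% to 73.5% for Lamb1. By the length of all exons Lamb1 took 39.9% in grafts and 36.5% in BM-MSCs, so that its order with Lamb2 in grafts depended on the length used. The summed laminin beta chain level per kilobase was 1010 ± 295 in grafts, 2627 ± 172 in BM-MSCs and 7675 ± 667 in P-SSCs (SD), with no overlap between the groups.

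**Figure D5:**
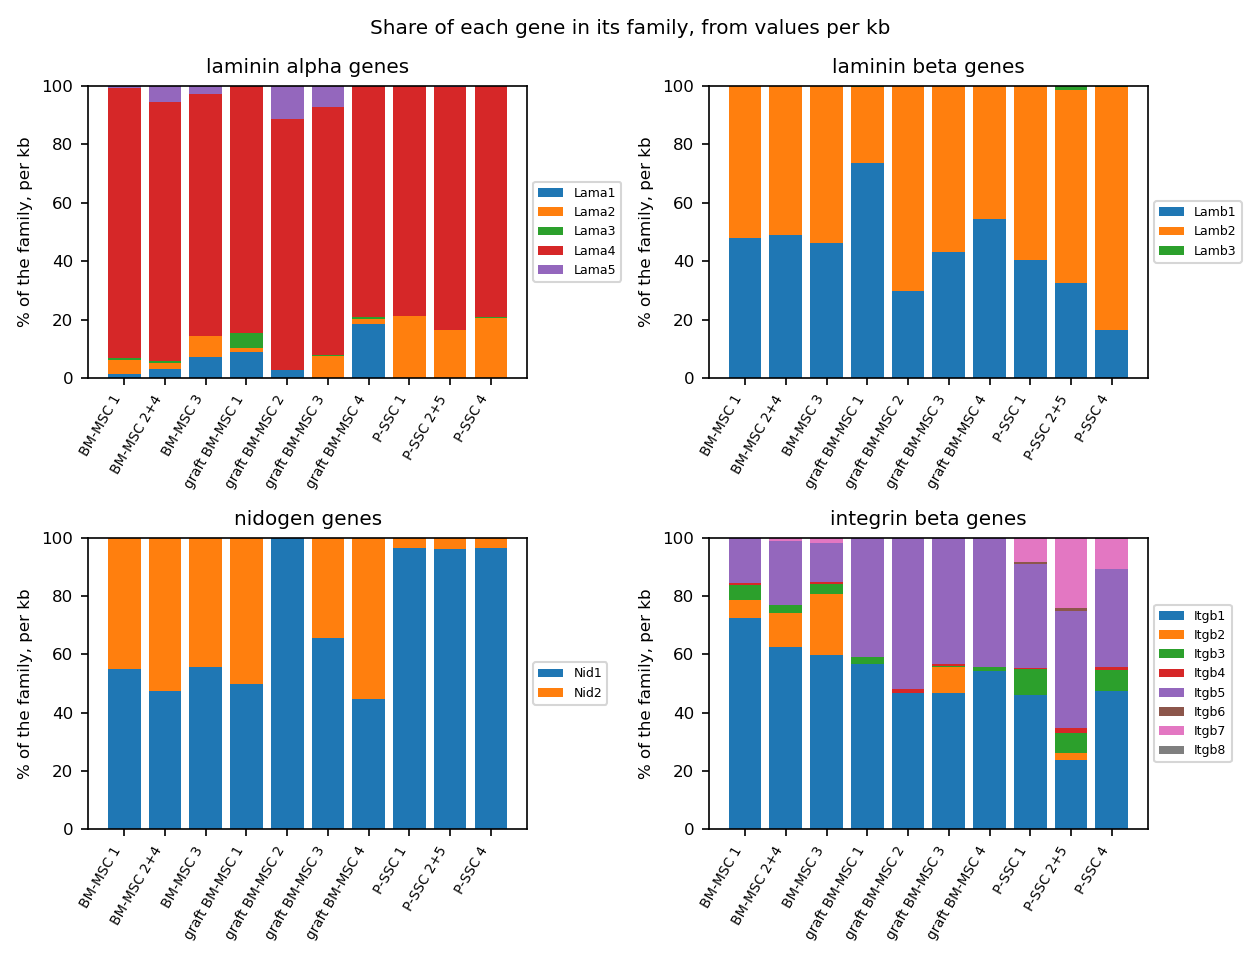
Share of each gene in the summed level of its family, from values per kilobase of the longest transcript, in each library for the laminin alpha, laminin beta, nidogen and integrin beta genes. Lama4 fills most of the laminin alpha panel in all 10 libraries, and Nid1 fills 96.1% to 96.5% of the nidogen panel in P-SSCs.

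The nidogens differed from each other. Nid1 had the highest values of the set, at 84930, 78561 and 56456 in P-SSCs, 8909, 5295 and 6901 in BM-MSCs and 3029, 2453, 3398 and 5339 in grafts. All P-SSCs lay above all marrow libraries, and 1 graft library reached the lowest BM-MSC. The log2 difference was -4.41 (SE 0.29, adjusted p = 9.95e-06) between grafts and P-SSCs and 3.39 (SE 0.31, adjusted p = 8.03e-05) between P-SSCs and BM-MSCs, and both calls held when any 1 library was left out. Between grafts and BM-MSCs it was -1.01 (SE 0.29, adjusted p = 0.0585). The study names Nid1 among matrix genes lower in graft P-SSCs 3 days after transplantation than in steady-state P-SSCs. Those early grafts are not among the libraries used here. Whether the steady-state P-SSC libraries were shared is not stated, so the difference of Nid1 may not be independent of that report. Nid2 was called in no comparison and was at 2433, 0.843, 1435 and 5272 in grafts, 5879, 4692 and 4382 in BM-MSCs and 2463, 2519.7 and 1709.9 in P-SSCs. All P-SSC values lay below all BM-MSC values, and graft BM-MSC 2, the library with the fewest genes detected, held 1 read. Per kilobase Nid1 took 96.3% ± 0.179 (SD, n = 3) of the nidogen level in P-SSCs, 52.7% ± 4.54 (n = 3) in BM-MSCs and 65.03% ± 24.9 (n = 4) in grafts.

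Hspg2, the perlecan gene, was at 1123, 335, 303 and 900.2 in grafts, 404, 1075 and 1062 in BM-MSCs and 2402, 2442 and 2009 in P-SSCs. P-SSCs lay above all marrow libraries. The log2 difference between grafts and P-SSCs was -2.01 (SE 0.54, adjusted p = 0.0271), and it lost its call without any 1 of graft BM-MSC 2 or 3 or P-SSC 1 or 2+5 (adjusted p up to 0.0963). On the recovered reads edgeR did not call it (adjusted p = 0.0628), while DESeq2 did (adjusted p = 0.00912). Agrn, the agrin gene, was called in no comparison, with means of 231 ± 163 (SD, n = 4) in grafts, 310.4 ± 79.8 (n = 3) in BM-MSCs and 148 ± 128 (n = 3) in P-SSCs.

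Dag1, which encodes both subunits of dystroglycan, was at 4453, 5733, 5416 and 6672 in grafts, 1253, 1115 and 1404 in BM-MSCs and 1364, 1225 and 7172 in P-SSCs. Every graft library lay above every BM-MSC library, and P-SSC 4 lay above all grafts while the other P-SSCs lay with the BM-MSCs. The log2 difference between grafts and BM-MSCs was 2.14 (SE 0.52, adjusted p = 0.0350). It lost its call without any 1 of the 7 graft and BM-MSC libraries (adjusted p up to 0.128), and was -0.33 (adjusted p = 0.876) in the fit with a term for the libraries with GC-rich genes high. Without P-SSC 4 the difference between grafts and P-SSCs was 2.09 (adjusted p = 0.000230), against 1.27 (adjusted p = 0.120) with it. In the fit without P-SSC 4, GC-rich genes were high in all grafts and low in all P-SSCs, and the difference cannot be told apart from this. From P-SSC 4 alone the grafts differed by -0.38 on the log2 scale.

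Within the 5 libraries in which GC-rich genes were high, P-SSC 4 alone could be set beside the grafts. For the genes called between grafts and P-SSCs, the log2 differences of the grafts from it ran from -8.88 for Itga7 to 2.51 for Itga1. Between P-SSC 1 and 2+5 and the BM-MSCs, which all had GC-rich genes low, the differences were 3.57 for Nid1 and 1.77 for Lamb2. These genes were called with the same libraries, so the values are a description with no test. The grafts and BM-MSCs shared no such class, so no value within it can be given for them.

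The adaptors that tie integrins to the cytoskeleton formed a list of 47 genes, of which 43 were in the table and 42 were tested. Between grafts and P-SSCs 17 were called, 13 lower and 4 higher in grafts, with a median log2 difference of -0.96, where 18.1% of all genes were called and their median was -0.47. Among genes with a mean of at least 100, Lims2, Flnc and Cav1 fell most. Lims2, an adaptor of integrin-linked kinase, was listed at 0 in all grafts and at 8140.3, 9049 and 8024 in P-SSCs, at least 3418-fold lower in grafts (adjusted p = 1.46e-05). Flnc, a filamin of muscle, and Cav1, caveolin, had log2 differences of -10.07 (SE 1.76, adjusted p = 0.00267) and -7.93 (SE 2.04, adjusted p = 0.0220). Tns3, Tln2 and Bcar1, which are a tensin, a talin and a scaffold of focal adhesions, were higher in grafts by 3.00 (SE 0.52, adjusted p = 0.00245), 1.92 (SE 0.45, adjusted p = 0.0145) and 1.59 (SE 0.39, adjusted p = 0.0168).

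Of the 42 adaptors 7 were called between grafts and BM-MSCs, 6 lower and 1 higher, with a median of -0.74, against 7.67% of all genes called and a median of -0.53. Lims2 was at least 50.1-fold lower in grafts, and Tns1 and Tln1, another tensin and the main talin, were lower by -2.07 (SE 0.56, adjusted p = 0.0489) and -1.94 (SE 0.49, adjusted p = 0.0391). Cd47, an integrin-associated membrane protein, was the 1 that was higher, by 2.43 (SE 0.53, adjusted p = 0.0238), and at 6765 in P-SSC 4 against 1395 and 1301 in the other P-SSCs. Between P-SSCs and BM-MSCs 10 were called, 5 in each direction, with a median of 0.02, against 9.15% of all genes called and a median of 0.00. Lims2 (6.33, SE 0.96, adjusted p = 0.00155), Zyx (2.90, SE 0.42, adjusted p = 0.00112) and Tns1 (2.21, SE 0.59, adjusted p = 0.0429) rose most in P-SSCs. Tns3 (-3.04, SE 0.55, adjusted p = 0.00491), Bcar1 (-1.61, SE 0.41, adjusted p = 0.0351) and Lims1 (-1.37, SE 0.27, adjusted p = 0.00730) fell most, so that the 2 related adaptors Lims1 and Lims2 had opposite signs.

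Partners of laminin in the basement membrane and of dystroglycan at the cell surface formed a list of 57 genes, of which 53 were in the table and 49 were tested. Between grafts and P-SSCs 26 were called, 20 lower and 6 higher in grafts, with a median of -1.39 against the same -0.47 and 18.1% called over all genes. Col4a5, a collagen IV chain, Ntn1, a laminin-related guidance factor, and Hmcn2, a hemicentin, were listed at 0 in all grafts and were at least 722-fold, 817-fold and 239-fold lower there than in P-SSCs. Smoc1, a secreted calcium-binding matrix protein, was higher in grafts by 5.23 (SE 0.51, adjusted p = 8.58e-05), and the syndecans Sdc1 and Sdc3, which are membrane proteoglycans, by 4.95 (SE 0.61, adjusted p = 0.000314) and 4.92 (SE 0.75, adjusted p = 0.00118).

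Between grafts and BM-MSCs 8 partners were called, 4 in each direction, with a median of -0.34 (-0.20 with genes at the floor set to their bound), where 7.67% of all genes were called and their median was -0.53. Col4a1, a main collagen IV chain, and Sparc, a collagen-binding matrix protein, were lower in grafts by -1.34 (SE 0.26, adjusted p = 0.0131) and -1.53 (SE 0.29, adjusted p = 0.0120), as was Matn2 (-1.86, SE 0.42, adjusted p = 0.0262). Sntb2, a syntrophin of the dystroglycan complex, and Pomgnt1, an enzyme that builds the laminin-binding sugar of dystroglycan, were higher by 3.27 (SE 0.77, adjusted p = 0.0297) and 2.65 (SE 0.67, adjusted p = 0.0391), as was Sdc3 (2.86, SE 0.75, adjusted p = 0.0456). Pomgnt1 was at 1189 in P-SSC 4 against 184 and 150.3 in the other P-SSCs, and Sntb2 at 1011 against 391 and 232. Between P-SSCs and BM-MSCs 12 were called, 9 higher and 3 lower in P-SSCs, with a median of 0.74, where 9.15% of all genes were called and their median was 0.00. Ntn1, Col4a5 and Hmcn2 rose most, Ntn1 by at least 651-fold, and Sdc1 (-4.67, SE 0.65, adjusted p = 0.000907), Smoc1 (-2.83, SE 0.54, adjusted p = 0.00698) and Ddr1 (-2.54, SE 0.38, adjusted p = 0.00139), a collagen receptor kinase, fell most. Endothelial markers, another source of basement membrane, were summed over 9 genes to 5410 to 8786 in P-SSCs, 2039 to 2966 in BM-MSCs and 310 to 1324 in grafts, with Cdh5 at 0 in all marrow libraries and at 2.08 to 58.6 in P-SSCs. Tek made up most of the sum in P-SSCs (6869, 4820 and 3254), while Tie1 and Emcn were at 0 in all P-SSCs and grafts and at 57.4 to 204 and 24.3 to 81.5 in BM-MSCs. Smooth muscle and pericyte markers were summed over 10 genes to 11969 to 30581 in P-SSCs, 2692 to 11064 in BM-MSCs and 2136 to 4480 in grafts. Acta2 made up most of it in P-SSCs (7454 to 22978). The pericyte genes on the list did not move together. Rgs5 and Notch3 were at 86.2 to 128 and 107 to 284 in P-SSCs and at 266 to 1437 and 1098 to 1180 in BM-MSCs. Mcam and Cspg4 were at 372 to 967 and 1000 to 1094 in P-SSCs and at 0 to 313 and 653 to 1206.5 in BM-MSCs. In grafts Mcam was at 0 and Cspg4 at 0 to 40.3. The part of these cells in the values above was not tested.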

How the data were processed

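Poly-A RNA of CD51+CD200+ cells was sequenced in 10 libraries, of which 4 came from grafts, 3 from marrow and 3 from periosteum. Each entry of the deposited table is a signal that the authors obtained by dividing a gene's read count by a size factor of the library. Values were whole multiples of the value of 1 read for 100% of entries at a tolerance of 0.1, and reads per library were the sums of these counts. The study's methods name GRCm38, STAR and DESeq2, whereas the submitters' processing notes list GRCm39, STAR 2.5, featureCounts of Subread 1.4.6 and DESeq2 1.26.0. The strand setting of the counting is not given in the sources used here, and overlapping or antisense genes may share reads. GENCODE M21 on GRCm38, joined by Ensembl ID (15052 matched, 26 not), gave the position, length and GC content of each gene. Promoters are those of RefSeq on GRCm38.p6.

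Genes with a mean of at least 10 (13644, with 1434 removed) were tested as log2(value + 1) with limma 3.58.1 in R 4.3.3, with 1 mean per group, all 10 libraries, 7 residual degrees of freedom, a variance trend, two-sided tests and Benjamini-Hochberg adjustment at 0.05. Log2 differences understate changes of genes that are low throughout a group. Where a group holds values near 0 beside larger ones, they can exceed the difference of the group means. Lama2 between grafts and P-SSCs was at -7.22, against -5.17 with edgeR and -5.29 with DESeq2. Nid2 was at -2.36 there with means of 2285 and 2231. A floor of 3 reads per library (0.119 to 0.195 ppm) was used for bounds and covers counting error only. Alternatives were other pseudocounts, filters and normalizations, edgeR 4.0.16 and DESeq2 1.42.0 on the recovered reads, GC terms, a replicate block and leaving out libraries. A covariate for libraries with GC-rich genes high was also fitted. The joint removal of graft BM-MSC 2 and P-SSC 4 was added after seeing the data. Members, gene lists and marker lists were chosen with earlier results of these data known. Members called in a comparison are given in every library. Of each wider list, the 3 called genes that rose most and the 3 that fell most are named per comparison, at a mean of at least 100. Further members not called, such as Itgb1, Itgb2, Itga2b and Nid2, were given by library after their values were seen. Some genes are counted but not reported by name here. No column was left without a library.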

Additional observations from a re-analysis of the deposited data

Results flagged for a closer look

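For each gene with more than 3 reads in at least 1 graft library, the highest and lowest library were compared with the nearest other by Dixon's ratio of gap to range at its 95% critical value for 4 samples. This was done for 35 genes, and 9 had a library that stood apart, in each case the highest. For normally distributed values chance alone gives about 1 in 20. These values include many at 0 and need not follow that rate, so no excess over chance is read from the count. In 5 of the 9 the other 3 libraries were listed at 0, which fixes the ratio at 1, namely Itga2 (56.5 in graft BM-MSC 1), Lamb3 (24.9 in graft BM-MSC 1), Itgb8 (59.0 in graft BM-MSC 2), Itgam (18.1 in graft BM-MSC 3) and Itga4 (63.0 in graft BM-MSC 4). In graft BM-MSC 3, Itgb2 was at 773 against at most 3.45 in the other grafts, Lama2 at 377 against at most 55.2 and Lamc3 at 231 against at most 7.77. In graft BM-MSC 4, Itga3 was at 545 against at most 85.6. The values of Itgb2 and Itgam in graft BM-MSC 3 stood beside a neutrophil marker sum of 116280 in that library, and the part of such cells was not tested.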

How the results depend on the processing

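Of the 32 calls of single genes, 18 were kept when any 1 of the 10 libraries was left out, and 14 were lost without at least 1 library. Calls lost numbered 0 with a pseudocount of 5, 3 with 0.1, 1 with median centring, 5 with quantile normalization, 5 in fits of 2 groups alone, 10 with edgeR, 5 with DESeq2 and 7 after GC correction. A covariate for the libraries with GC-rich genes high lost 15 and turned 1, Dag1 between grafts and BM-MSCs (-0.33), since only P-SSCs hold both classes. The median of all genes between grafts and P-SSCs moved from -0.47 to -0.02 with quantile normalization and 0.28 after GC correction, and between grafts and BM-MSCs from -0.53 to -0.17 and 0.23. Where no cause is given, the cause was not tested.

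Counts are given for grafts against P-SSCs first, then grafts against BM-MSCs, then P-SSCs against BM-MSCs. The counts of called genes of the set (16, 4, 12) were 13 to 17, 2 to 6 and 6 to 14 with 1 library left out. Those of the adaptors (17, 7, 10) were 10 to 19, 2 to 8 and 5 to 13, and those of the basement membrane partners (26, 8, 12) were 14 to 23, 0 to 12 and 10 to 13, where 0 was without BM-MSC 3 (13 at an unadjusted p under 0.05). A count moved by over 1.5 times for the set without BM-MSC 2+4 (2 and 6), BM-MSC 3 (6) and P-SSC 4 (7), for the adaptors without graft BM-MSC 1 or any BM-MSC, P-SSC 1 or P-SSC 2+5 library, and for the partners without graft BM-MSC 3, any BM-MSC library, P-SSC 1 or P-SSC 2+5. Without graft BM-MSC 2 and P-SSC 4 together, chosen after seeing the data, the set gave 17, 4 and 11, and 11 adaptors were called between grafts and BM-MSCs.

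With the GC covariate in limma, grafts against P-SSCs gave 9 genes of the set, 5 adaptors and 11 partners, grafts against BM-MSCs gave 0 of each (3, 4 and 6 at an unadjusted p under 0.05), and P-SSCs against BM-MSCs gave 7 of the set. After GC correction 5 adaptors were called between P-SSCs and BM-MSCs. edgeR called 7 of the set, 6 adaptors and 7 partners between P-SSCs and BM-MSCs, 11 partners between grafts and P-SSCs, and 1 adaptor and 3 partners between grafts and BM-MSCs. DESeq2 called 8 of the set and 13 partners between grafts and BM-MSCs. Fits of 2 groups alone called 16 adaptors between P-SSCs and BM-MSCs and 15 partners between grafts and P-SSCs.

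Samples of different groups share replicate numbers. Between libraries with the same number, the deviations from the group means correlated at -0.019 to 0.030. BM-MSC 2+4 and P-SSC 2+5 had no partner of the same number and were not compared. Group means rest on 3 or 4 libraries, so this check cannot exclude that libraries of the same number shared a mouse. A limma fit with the replicate number as a block called 5 genes of the set, 4 adaptors and 4 partners between grafts and P-SSCs, 0 of each between grafts and BM-MSCs (7, 10 and 14 at an unadjusted p under 0.05), and 0, 0 and 1 between P-SSCs and BM-MSCs (14 of the set and 11 adaptors at an unadjusted p under 0.05). With the block and GC correction these were 3, 3 and 6, then 0 of each (6, 11 and 14), then 0, 0 and 1 (15 and 12).

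Itgb6 and Itgam rest on few reads in every group. Itga2 and Lamb3 do so in the marrow libraries, while in P-SSCs they reached up to 464 and 368 reads. By the floor of 3 reads, a value of 0 allows up to 0.119 to 0.195 ppm of all reads. With 3 or 4 libraries a group, a difference that missed the threshold is not shown to be absent.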
